A study of Homo sapiens with 18 samples.

Results

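The MYC and MAX network comprised 10 genes, chosen by name with earlier results of these data known. The genes were MYC, MYCN and MYCL, their partner MAX, the antagonists MXD1, MXD3, MXD4, MXI1 and MNT, and the MAX-like factor MLX. Of these, 9 were among the 23622 genes of the RNA-seq count table, and all 9 passed the filter on low counts, while RNA of MYCN was not analysed here. A2780 is a cisplatin-sensitive human ovarian carcinoma line, and Acis is its cisplatin-resistant derivative, which was kept in culture with 1 µM cisplatin every 3 passages. Both lines were studied untreated and after exposure to 200 µM cisplatin for 3 h, giving the groups A2780 control, A2780 cisplatin, Acis control and Acis cisplatin with 3 RNA-seq libraries each. ATAC-seq, which maps accessible chromatin by transposase insertion, gave 1 list of peaks for each of these 4 conditions. The study used 1 sensitive and 1 resistant line, so that resistance cannot be told apart from any other difference between them.

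MYC proteins are transcription factors that bind DNA as pairs with MAX, mostly at the E-box sequence CACGTG, and they raise the output of many genes for ribosome formation, nucleotide synthesis and metabolism. MXD proteins, MXI1 and MNT also pair with MAX, compete for the same sites and recruit SIN3 corepressors. MLX pairs with MLXIP or MLXIPL, which sense sugar phosphates, as well as with MNT, MXD1 and MXD4. MYC mRNA and protein are short-lived, so that their level follows transcription closely, and MYC is often amplified or overexpressed in ovarian cancer.

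The promoters of MXD1, MXD3, MXD4, MNT, MYCL and MLX are shown, since the first 5 are the members whose RNA rose after cisplatin and MLX is the other member with an E-box. Each line holds the 250 bases before the transcription start, 5′ to 3′ on the strand of the gene, from RefSeq on GRCh38.p14, and the capitals mark an E-box (CACGTG) or an AP-1 motif (TGANTCA).
MXD1: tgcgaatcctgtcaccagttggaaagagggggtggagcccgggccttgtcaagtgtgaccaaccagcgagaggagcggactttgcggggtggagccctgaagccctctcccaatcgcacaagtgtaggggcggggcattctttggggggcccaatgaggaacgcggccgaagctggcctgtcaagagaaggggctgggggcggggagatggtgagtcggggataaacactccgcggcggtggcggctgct
MXD3: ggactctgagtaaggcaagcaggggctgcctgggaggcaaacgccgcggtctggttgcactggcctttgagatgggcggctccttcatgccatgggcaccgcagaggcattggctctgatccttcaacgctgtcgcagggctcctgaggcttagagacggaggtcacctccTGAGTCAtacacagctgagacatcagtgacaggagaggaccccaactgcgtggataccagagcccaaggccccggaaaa
MXD4: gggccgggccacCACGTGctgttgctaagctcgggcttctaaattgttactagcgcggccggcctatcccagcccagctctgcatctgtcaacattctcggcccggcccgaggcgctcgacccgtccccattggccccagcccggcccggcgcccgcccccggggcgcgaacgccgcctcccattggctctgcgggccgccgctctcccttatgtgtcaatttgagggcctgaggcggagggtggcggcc
MNT: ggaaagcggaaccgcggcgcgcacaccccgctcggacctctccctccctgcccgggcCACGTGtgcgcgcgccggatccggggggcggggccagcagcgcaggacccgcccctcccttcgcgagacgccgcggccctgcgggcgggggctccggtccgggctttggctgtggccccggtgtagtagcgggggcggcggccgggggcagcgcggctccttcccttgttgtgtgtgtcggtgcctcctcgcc
MYCL: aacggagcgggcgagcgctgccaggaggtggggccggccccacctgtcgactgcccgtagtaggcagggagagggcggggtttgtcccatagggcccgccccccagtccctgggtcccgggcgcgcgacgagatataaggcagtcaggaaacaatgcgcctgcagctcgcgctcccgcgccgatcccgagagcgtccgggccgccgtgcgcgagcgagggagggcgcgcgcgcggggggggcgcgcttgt
MLX: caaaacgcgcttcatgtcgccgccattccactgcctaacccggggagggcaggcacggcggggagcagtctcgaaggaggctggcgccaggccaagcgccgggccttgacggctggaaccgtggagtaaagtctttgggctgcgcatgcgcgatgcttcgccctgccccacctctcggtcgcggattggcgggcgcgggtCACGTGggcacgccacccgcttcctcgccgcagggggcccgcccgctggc
These sequences lie at chr2:69914859-69915108 on the plus strand, chr5:177312753-177313002 on the minus strand, chr4:2262110-2262359 on the minus strand, chr17:2401061-2401310 on the minus strand, chr1:39901918-39902167 on the minus strand and chr17:42566850-42567099 on the plus strand. Both strands were searched for each motif in windows from 250 bases before to 50 bases after the start, in the 12 RefSeq entries that matched 9 of the members. An E-box was present in the windows of MXD4, 238 bases before the start, of MNT, 193 bases before it, and of MLX, 50 bases before it. Among all 35116 promoter windows of the same length, 7.26% held an E-box. MXD3 had 1 AP-1 motif, 79 bases before the start, against 7.71% of all windows, and none of the 9 members searched had the cyclic AMP response element TGACGTCA, which was found in 1.85% of all windows. MXD1 and MYCL held none of these motifs in the windows searched, and MYC was not searched. For MXD3, the start of the MANE Select transcript lies 859 bp downstream of the annotated gene start. The bases around that transcript start were not searched.

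The total of reads counted on genes ranged from 4130644 to 5072216 per RNA-seq library. Differences between libraries of the same group were 0.73 to 1.53 times the counting noise. The study states that the cells of each condition were seeded in triplicate, but not whether this was done on separate occasions. The p-values therefore measure the spread between these libraries, which may be technical. Merging the closest pair of libraries in the 3 other groups than A2780 control, where all 3 pairs lay below the counting noise, changed no call of a member. Of 7 epithelial and ovarian tumour markers, KRT8, KRT18 and EPCAM were in the table, with a summed normalized count of 34.6 to 51.3 in A2780 control, 49.1 to 63.7 in A2780 cisplatin, 135 to 158 in Acis control and 146 to 154 in Acis cisplatin libraries, and EPCAM had no count in 1 library each of Acis control and Acis cisplatin. The higher sum in Acis came from KRT18, at 18.3 to 32.0 in A2780 control and 132 to 150.4 in Acis control, while KRT8 was lower there, at 12.5 to 20.5 and 2.12 to 6.84, and EPCAM had 2.13 to 4.66 and 0 to 1.14. Of 6 markers of other cell types, CD68, COL1A1 and DCN were in the table, and their sum, most of it COL1A1, was 826 to 956, 640 to 788, 11.7 to 27.7 and 19.7 to 26.5 in the same order. These markers separated the lines, and their part in the line differences given here was not tested.

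Counts were compared between groups as normalized counts, with TMM factors applied and each library brought to the average size of 4572775, and a gene is called higher or lower at an adjusted p-value under 0.05 in the edgeR quasi-likelihood test over 15760 genes. Cisplatin raised the RNA of 4 antagonists and of MYCL in A2780, and of MXD1, MXD4 and MYCL in Acis, while for MYC, MAX, MXI1 and MLX no difference passed the test in either line. In A2780, 5 of the 9 tested members were higher, none lower and 4 not past the test, where 21.2% of all tested genes were higher and 28.2% lower. In Acis, 3 of 9 were higher, none lower and 6 not past the test, against 9.35% higher and 12.4% lower among all tested genes. Over the members, the median was 0.42 in A2780 and 0.12 in Acis on the log2 scale, with -0.01 and 0.01 over all tested genes. None of these changes reached the stricter rule of the study, an adjusted p-value under 0.05 with a log2 change of 1 or more in either direction, which 5.62% of all tested genes met in A2780 and 2.01% in Acis. Medians were also taken over tested genes with a span within 2-fold of that of a member. In A2780 they were 0.21 for MYCL, 0.15 for MXD3, 0.11 for MXD4 and 0.09 for MNT. In Acis these were 0.09, 0.08, 0.07 and 0.06. For MLX the medians were 0.22 in A2780 and 0.09 in Acis, and for MXI1 -0.23 and -0.06. Those for MYC, MAX and MXD1 are given below.

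Between the lines the network differed in another pattern, with MYC, MYCL, MAX, MLX and the antagonist MXI1 higher and the antagonists MXD1 and MXD4 lower in Acis. In untreated cells, MYC, MYCL, MAX, MXI1 and MLX were higher in Acis, MXD1 and MXD4 were lower, and MXD3 and MNT did not pass the test. The MXD1 call was lost in DESeq2 (adjusted p-value 0.0954) and without A2780 control replicate 1 or Acis control replicate 2. The MXD4 call was lost without Acis control replicate 3 (adjusted p-value 0.084). Among all tested genes, 28.2% were higher and 30.6% lower in that comparison, and 19.1% met the stricter rule, which MYCL alone met among the members. MYCL did so narrowly, at 1.01 on the log2 scale, with 0.92 to 1.09 under the alternative settings described below. After cisplatin, MYC, MYCL, MAX, MXI1 and MLX were again higher in Acis and all 4 of MXD1, MXD3, MXD4 and MNT were lower, against 31.8% higher and 31.2% lower among all tested genes. No member met the stricter rule after cisplatin, which 19.2% of all tested genes did. The 2 cisplatin comparisons and the 2 line comparisons use the same 12 libraries and are not independent of each other.

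**Figure D1:**
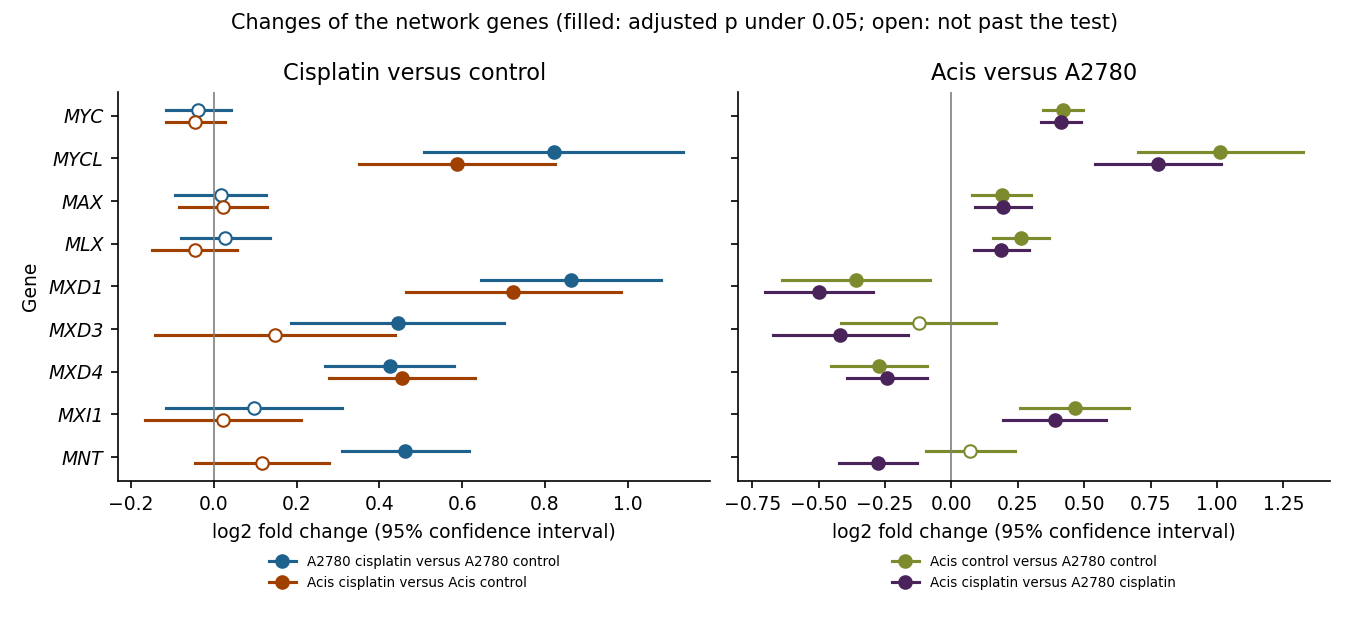
Log2 fold changes of the 9 tested members with 95% confidence intervals, for cisplatin against control in each line (left) and for Acis against A2780 without and with cisplatin (right). Filled points passed the test: on the left these are MYCL, MXD1, MXD3, MXD4 and MNT in A2780 and MYCL, MXD1 and MXD4 in Acis, and on the right MYC stands at 0.42 and 0.41 with narrow intervals.

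Levels of different genes were compared as normalized counts per kilobase of annotated exon. MYC had the highest level in every group, with 129 ± 1.1 per kb (SD, n = 3) in untreated and 125.5 ± 1.61 in treated A2780, and 172 ± 4.45 in untreated and 167 ± 1.32 in treated Acis. MLX and MAX followed in all 4 groups, at 91.0 and 61.8 per kb in A2780 control, without overlap of the libraries between neighbours in this order. MXD4 and MNT came next, at 39.7 and 35.5 per kb in A2780 control, and their ranges overlapped in the other 3 groups. MXD1, MXI1, MXD3 and MYCL had the lowest levels, in an order that differed between the groups. In A2780 control, MYCL was the lowest of the 9 at 6.89 ± 0.844 per kb, below the libraries of every other member. In Acis cisplatin it stood in place 6 at 21.1 ± 1.23 per kb, where its libraries overlapped with those of MXI1 at 20.7 ± 0.0795. MXD1 was in place 6 in A2780 cisplatin at 27.03 ± 1.87 per kb and last in Acis control at 11.6 ± 1.39, where it overlapped with MXD3. These places depend on the length used. Divided by the length of the longest transcript, MXI1 had 35.1 to 35.4 and MYCL 28.2 to 31.6 per kb in Acis cisplatin. MXD1 then had 11.4 to 14.5 and MXD3 22.8 to 28.0 in Acis control, and in A2780 cisplatin 28.7 to 32.9 and 30.6 to 40.3.

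**Figure D2:**
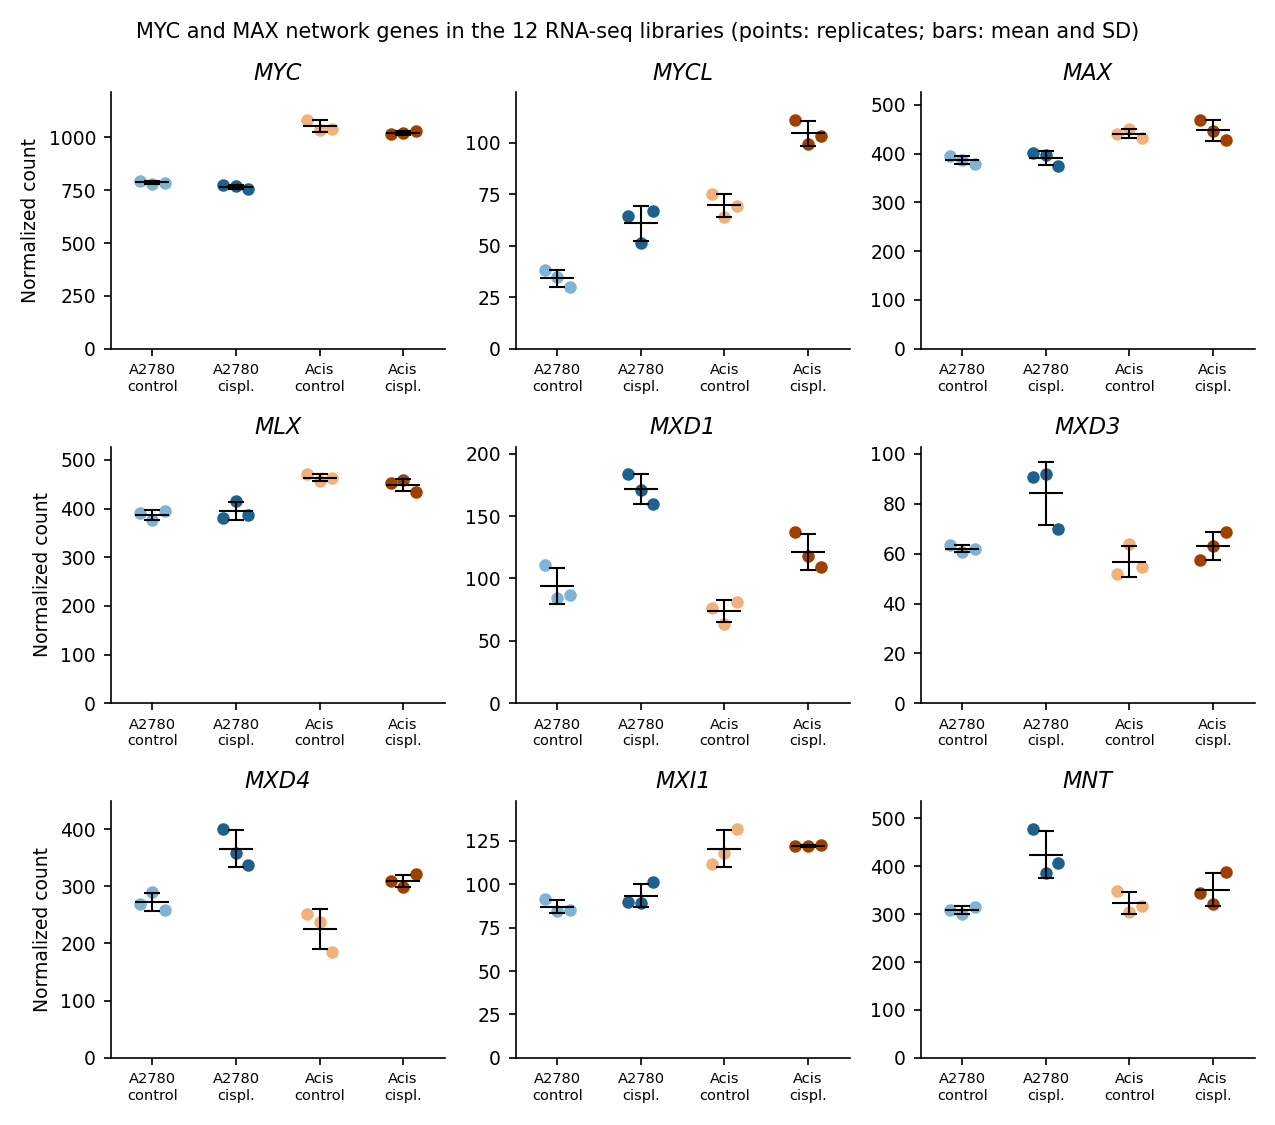
Normalized counts of the 9 members in the 12 RNA-seq libraries, with 1 panel per gene, a point per library and bars for the mean and SD of 3 replicates, on axes that start at 0. MYC lies at 756 to 794 in the A2780 libraries and at 1014 to 1084 in the Acis libraries, while MXD1 and MYCL are higher in the cisplatin libraries of each line than in its controls.

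MYC (ENSG00000136997), the main member of the family in most tissues, lies on chromosome 8 at 127735434 to 127742951 on the plus strand of GRCh38 in GENCODE 44, which gave all gene positions here. Its normalized counts were 794, 781 and 785 in A2780 control libraries, 775, 769 and 756 in A2780 cisplatin, 1084, 1036 and 1039 in Acis control and 1014, 1020 and 1030.0 in Acis cisplatin. The cisplatin libraries of each line were all slightly below its control libraries, and all Acis libraries were above all A2780 libraries. The cisplatin effect was -0.04 ± 0.04 (SE) on the log2 scale in A2780 and -0.04 ± 0.03 in Acis, with adjusted p-values of 0.475 and 0.444. The 95% confidence intervals ran from -0.12 to 0.04 for A2780, and for Acis from -0.12 to 0.03. These small differences depend on the scaling, since with total counts as the library size they were 0.08 and 0.01, while the median of all tested genes moved from -0.01 to 0.10 for A2780, and for Acis from 0.01 to 0.07. Tested genes with a span within 2-fold of that of MYC had medians of 0.20 in A2780 and 0.09 in Acis on the log2 scale, above the values of MYC. MYC was 1.34-fold higher in Acis control than in A2780 control, with a log2 difference of 0.42 ± 0.04 and an adjusted p-value of 8.84e-11. After cisplatin the difference was 0.41 ± 0.04, with an adjusted p-value of 9.28e-11. In bulk libraries, more RNA per cell and a larger share of cells with that RNA cannot be told apart.

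MYCL (ENSG00000116990), a family member best known from small cell lung cancer, lies on chromosome 1 at 39895428 to 39902256 on the minus strand. It had 38.2, 34.6 and 29.9 normalized counts in A2780 control, 64.7, 51.3 and 66.8 in A2780 cisplatin, 75.3, 63.9 and 69.5 in Acis control and 111, 99.4 and 103 in Acis cisplatin libraries. Treated libraries were above untreated ones in each line without overlap, and the Acis libraries were above the A2780 libraries of the same treatment. MYCL rose 1.77-fold in A2780 (log2 fold change 0.82 ± 0.15, adjusted p-value 6.2e-05) and 1.5-fold in Acis (0.59 ± 0.12, adjusted p-value 0.00038). It was 2.02-fold higher in Acis control than in A2780 control (1.01 ± 0.15, adjusted p-value 1.69e-06) and 1.72-fold higher in Acis cisplatin than in A2780 cisplatin (0.78 ± 0.12, adjusted p-value 1.35e-06). Its raw counts were 28 to 116 per library, which gives a wider error than for MYC. Of the summed level per kb of MYC and MYCL, MYC made up 94.9% ± 0.565 (SD, n = 3) without and 91.1% ± 1.17 with cisplatin in A2780, and 92.5% ± 0.419 without and 88.8% ± 0.625 with cisplatin in Acis. MYCN, at 15940550 to 15947007 on chromosome 2, enters only through its accessible chromatin.

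MAX (ENSG00000125952), the obligate partner of MYC and of its antagonists, lies on chromosome 14 at 65006174 to 65102695 on the minus strand. Its normalized counts were 394, 387 and 379 in A2780 control, 402, 398 and 374 in A2780 cisplatin, 440.3, 451 and 432 in Acis control and 470.1, 446 and 427 in Acis cisplatin. The treated and untreated libraries overlapped in each line, and the Acis libraries were above the A2780 libraries. The cisplatin effect of MAX was 0.02 ± 0.05 on the log2 scale in both lines, with adjusted p-values of 0.845 in A2780 and 0.856 in Acis. Its log2 difference between the lines was 0.19 ± 0.05 in untreated cells (adjusted p-value 0.00345) and 0.19 ± 0.05 after cisplatin (adjusted p-value 0.00189, but 0.055 in DESeq2). Tested genes with a span within 2-fold of the 96522 bp of MAX had a median log2 fold change of -0.27 after cisplatin in A2780 and -0.08 in Acis, below the values of MAX.

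MLX (ENSG00000108788), which pairs with MLXIP and MLXIPL, lies on chromosome 17 at 42567072 to 42573239 on the plus strand. It had 391, 376 and 395 normalized counts in A2780 control, 382, 415 and 387 in A2780 cisplatin, 471, 457 and 464 in Acis control and 453, 460 and 435 in Acis cisplatin. The groups of each line overlapped, with effects of 0.03 ± 0.05 in A2780 and -0.05 ± 0.05 in Acis on the log2 scale (adjusted p-values 0.725 and 0.632). MLX was 1.20-fold higher in Acis control than in A2780 control (0.26 ± 0.05, adjusted p-value 8.81e-05) and 1.14-fold higher in Acis cisplatin than in A2780 cisplatin (0.19 ± 0.05, adjusted p-value 0.00209, but 0.0635 in DESeq2). With total counts as the library size, MAX and MLX passed the test after cisplatin in A2780, at 0.13 (adjusted p-value 0.046) and 0.14 (adjusted p-value 0.0284), close to the median of all tested genes of 0.10 on that scale.

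MXD1 (ENSG00000059728), also known as MAD1, is an antagonist that rises when cells stop dividing and differentiate, and it lies on chromosome 2 at 69897688 to 69942945 on the plus strand. Its normalized counts were 111, 84.6 and 86.4 in A2780 control and 184, 171 and 160.0 in A2780 cisplatin. In Acis they were 76.4, 63.9 and 80.9 without and 137, 118 and 109 with cisplatin. All treated libraries of a line were above its untreated libraries, and MXD1 had the highest fold change of the 9 members in each line. It rose 1.82-fold in A2780 (log2 fold change 0.86 ± 0.11, adjusted p-value 1.47e-07) and 1.65-fold in Acis (0.72 ± 0.13, adjusted p-value 9.93e-05). Tested genes of similar span had medians of -0.11 and 0.00 in these comparisons. The span used, 45258 bp, includes the 17421 bp before the start of the MANE Select transcript, and a shorter span was not used. For the 17032 bp span of MNT the medians were 0.09 and 0.06. MXD1 was lower in Acis than in A2780 both without cisplatin (-0.36 ± 0.13, adjusted p-value 0.0238) and after it (-0.50 ± 0.10, adjusted p-value 8.49e-05). The difference in untreated cells did not pass the test in DESeq2 (adjusted p-value 0.0954), without A2780 control replicate 1 (-0.23, adjusted p-value 0.197) or without Acis control replicate 2 (-0.28, adjusted p-value 0.123). Of its exon bases, 3.73% were shared with SNRNP27 on the same strand, so that its count is to that extent uncertain.

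MXD4 (ENSG00000123933), an antagonist expressed in many tissues, lies on chromosome 4 at 2247432 to 2262109 on the minus strand. It had 269, 290.3 and 259 normalized counts in A2780 control, 401, 359 and 338 in A2780 cisplatin, 251, 238 and 186 in Acis control and 309, 299 and 321 in Acis cisplatin. The treated libraries were above the untreated ones in each line, with Acis control replicate 3 the lowest of all. MXD4 rose 1.34-fold in A2780 (0.42 ± 0.08, adjusted p-value 4.31e-05) and 1.37-fold in Acis (0.45 ± 0.09, adjusted p-value 0.00024). It was lower in Acis in untreated cells (-0.27 ± 0.09, adjusted p-value 0.00951) and after cisplatin (-0.24 ± 0.07, adjusted p-value 0.00569). These line differences were lost without Acis control replicate 3 (-0.17, adjusted p-value 0.084) and without A2780 cisplatin replicate 1 (-0.17, adjusted p-value 0.0616), respectively. The microRNA gene MIR4800 overlaps 1.16% of its exon bases.

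MXD3 (ENSG00000213347), which unlike the other MXD genes is expressed in dividing cells, lies on chromosome 5 at 177301461 to 177312757 on the minus strand. Its normalized counts were 63.4, 60.6 and 61.9 in A2780 control, 90.9, 91.9 and 69.7 in A2780 cisplatin, 52.0, 63.9 and 54.7 in Acis control and 57.6, 63.0 and 68.7 in Acis cisplatin. Replicate 3 of A2780 cisplatin stood well below the other two but above all A2780 controls, and the Acis groups overlapped. MXD3 rose 1.36-fold in A2780 (0.44 ± 0.12, adjusted p-value 0.00428, but 0.0717 in DESeq2), and its value in Acis was 0.15 ± 0.14 (adjusted p-value 0.566). It was lower in Acis cisplatin than in A2780 cisplatin (-0.42 ± 0.12, adjusted p-value 0.00456, but 0.0603 in DESeq2), with -0.12 ± 0.14 in untreated cells (adjusted p-value 0.521). Of the exon bases of MXD3, 19.5% were shared with RAB24 on the same strand, the largest such share among the 9, so that its count is to that extent uncertain.

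MXI1 (ENSG00000119950), formerly MXD2, is an antagonist and a target of hypoxia-inducible factor, and it lies on chromosome 10 at 110207605 to 110287365 on the plus strand. It had 91.4, 84.6 and 85.4 normalized counts in A2780 control, 90.0, 89.0 and 101 in A2780 cisplatin, 111, 118 and 132 in Acis control and 122, 122 and 123 in Acis cisplatin. The groups of each line overlapped, and all Acis libraries were above all A2780 libraries. MXI1 was the only one of the 5 antagonists that was higher in Acis, by 1.38-fold in untreated cells (0.46 ± 0.10, adjusted p-value 0.000238) and 1.31-fold after cisplatin (0.39 ± 0.09, adjusted p-value 0.00116). Its cisplatin effects were 0.10 ± 0.10 in A2780 and 0.02 ± 0.09 in Acis (adjusted p-values 0.532 and 0.931).

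MNT (ENSG00000070444), the antagonist that is present in most dividing and resting cells, lies on chromosome 17 at 2384073 to 2401104 on the minus strand. Its normalized counts were 310, 301 and 316 in A2780 control, 479, 387 and 407 in A2780 cisplatin, 349, 304 and 318 in Acis control and 343, 321 and 389 in Acis cisplatin. The A2780 groups were separate, the Acis groups overlapped, and A2780 cisplatin replicate 1 was the highest library. MNT rose 1.38-fold in A2780 (0.46 ± 0.07, adjusted p-value 9.67e-06), while its effect in Acis was 0.12 ± 0.08, with a 95% confidence interval of -0.05 to 0.28 and an adjusted p-value of 0.346. It did not pass the test between the untreated lines (0.07 ± 0.08, adjusted p-value 0.488) and was lower in Acis after cisplatin (-0.28 ± 0.07, adjusted p-value 0.00155), although the lowest A2780 cisplatin library, at 387, was below the highest Acis cisplatin library, at 389.

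Whether the cisplatin effect differed between the lines was tested as an interaction, the effect in Acis minus that in A2780. Among all tested genes, 13.4% had a more positive and 5.48% a more negative effect in Acis. Of the 9 members, MNT alone passed, with a log2 difference of -0.35 ± 0.11, a 95% confidence interval of -0.57 to -0.12 and an adjusted p-value of 0.0256. In DESeq2 its adjusted p-value was 0.0639, and leaving out A2780 control replicate 1 or 2, A2780 cisplatin replicate 1, Acis control replicate 1 or Acis cisplatin replicate 1 or 2 gave adjusted p-values of 0.0515 to 0.0971 and differences of -0.35 to -0.25. For MYC, the interval of the difference ran from -0.11 to 0.10, the narrowest of the members. MAX had an interval from -0.15 to 0.16 and MLX one from -0.22 to 0.07. Less certain were MXD1, with an interval from -0.49 to 0.21, MYCL, from -0.63 to 0.16, MXD3, from -0.68 to 0.09, and MXI1, from -0.36 to 0.21. For MXD4 the interval ran from -0.21 to 0.27. Apart from MNT, these intervals include 0, which does not show that the lines responded alike.

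The balance of antagonists and activators among the members was described by the summed level per kb of MXD1, MXD3, MXD4, MXI1 and MNT over that of MYC and MYCL. This ratio was chosen after the values of the members were seen and is given without a test. It was 0.878, 0.869 and 0.856 in A2780 control libraries, 1.26, 1.16 and 1.115 in A2780 cisplatin, 0.615, 0.621 and 0.599 in Acis control and 0.737, 0.711 and 0.760 in Acis cisplatin. The A2780 libraries were above all Acis libraries, treated or not, and the treated libraries were above the untreated ones in each line. The antagonists summed to 118 ± 2.96 per kb without and 163 ± 12.5 with cisplatin in A2780, and to 114 ± 4.24 without and 138.5 ± 5.45 with cisplatin in Acis. MYC and MYCL summed to 136 ± 1.76, 138 ± 1.90, 186 ± 5.51 and 188 ± 1.24 per kb in the same order. Thus the denominator differed mainly between the lines. The numerator differed with cisplatin in each line and also between the treated lines, where it was lower in Acis. The ratio leaves out MGA, a MAX partner with repressive function that is not among the members. MGA had 1480.3 to 1613 normalized counts in A2780 control, above each antagonist in the ratio. It fell after cisplatin, with log2 changes of -0.77 in A2780 and -0.54 in Acis, while the ratio rose. A ratio that includes MGA was not tested.

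**Figure D3:**
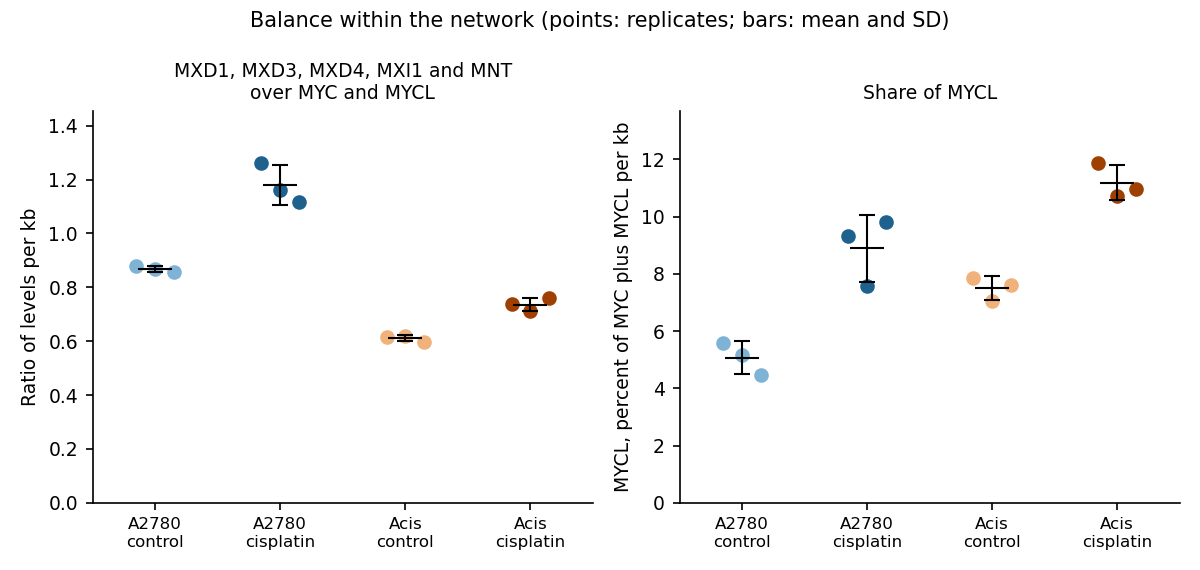
Ratio of the summed level per kb of 5 antagonists to that of MYC and MYCL (left), and share of MYCL in the level per kb of MYC and MYCL in percent (right), with a point for each of the 12 RNA-seq libraries and bars for the mean and SD of 3 replicates. The mean ratio is 0.868 without and 1.18 with cisplatin in A2780, and 0.6115 without and 0.736 with cisplatin in Acis, and the share of MYCL is 4.47% to 5.59% in A2780 control and 10.7% to 11.9% in Acis cisplatin.

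ATAC-seq peaks were taken as at a gene start when they overlapped the 1 kb on either side of it. Such a peak was present for 9 of the 10 members in A2780 control, A2780 cisplatin and Acis control and for 8 in Acis cisplatin. Of 14127 protein-coding genes in the count table, 70.7%, 72.2%, 63.8% and 68.1% had one in the same order. The lists hold no replicates, so no difference between them was tested, and the median fold enrichment over background of a whole list was itself 9.96 without and 8.79 with cisplatin in A2780, and 12.8 without and 11.0 with cisplatin in Acis. MXD1 had no peak at its annotated start, which lies 17421 bp before the start of its MANE Select transcript, but at the latter, where RefSeq places the promoter shown above, it had a peak in every list with a fold enrichment of 20.2, 18.2, 21.5 and 23.6. MXI1 had a peak at its annotated start in the first 3 lists, at 9.57, 9.94 and 7.64, and none there in Acis cisplatin. A further peak about 3 to 4 kb inside MXI1 was in all 4 lists.

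MXD4 had the most enriched peak at an annotated start, at 20.5, 19.1, 22.6 and 22.7 in the 4 lists, and it contained the E-box of the promoter in each of them. The peak at or just before the start of MNT, at 8.41, 8.30, 10.6 and 10.4, contained its E-box in A2780 control, Acis control and Acis cisplatin, while in A2780 cisplatin the edge of the peak lay 30 bases further from the start than that site. At MLX, 1 peak across the start at 6.18 in A2780 control and 8.43 in Acis control was listed as 2 peaks in both cisplatin lists, and the E-box was in a peak in all lists but A2780 cisplatin. The AP-1 motif of MXD3 lay wholly within a peak in all lists but Acis cisplatin, where the edge of the peak cut through it.

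The peak across the MYC start was broad, at 1504 to 1554 bp, and low in enrichment, at 5.72 and 5.90 in A2780 without and with cisplatin and 7.02 and 8.14 in Acis, which placed it at the 16.5, 22.6, 18.2 and 31 percentile of its list. A smaller peak upstream of it had 6.27 and 3.94 in A2780 without and with cisplatin, and 8.01 and 5.73 in Acis. MYCL had 1 peak at its start, with a fold enrichment of 11.5, 9.59, 15.1 and 15.6 in the 4 lists, and MAX one of 13.2, 13.8, 17.0 and 17.7. MYCN had a peak just before its start in all 4 lists, at 10.9, 9.77, 9.99 and 10.5, and it was the only peak listed within the gene or 5 kb of it. The peaks across or just before the starts of MYC, MYCL, MAX, MXD4 and MNT were thus higher in both Acis lists than in both A2780 lists. The same held for the peak at the MANE Select start of MXD1, but not for MYCN or MXI1. The medians of the whole Acis lists were higher as well. Within its list, the MXD4 peak stood at the 92.6 and 95.4 percentile in A2780 without and with cisplatin, and at 89.7 and 91.9 in Acis.

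**Figure D4:**
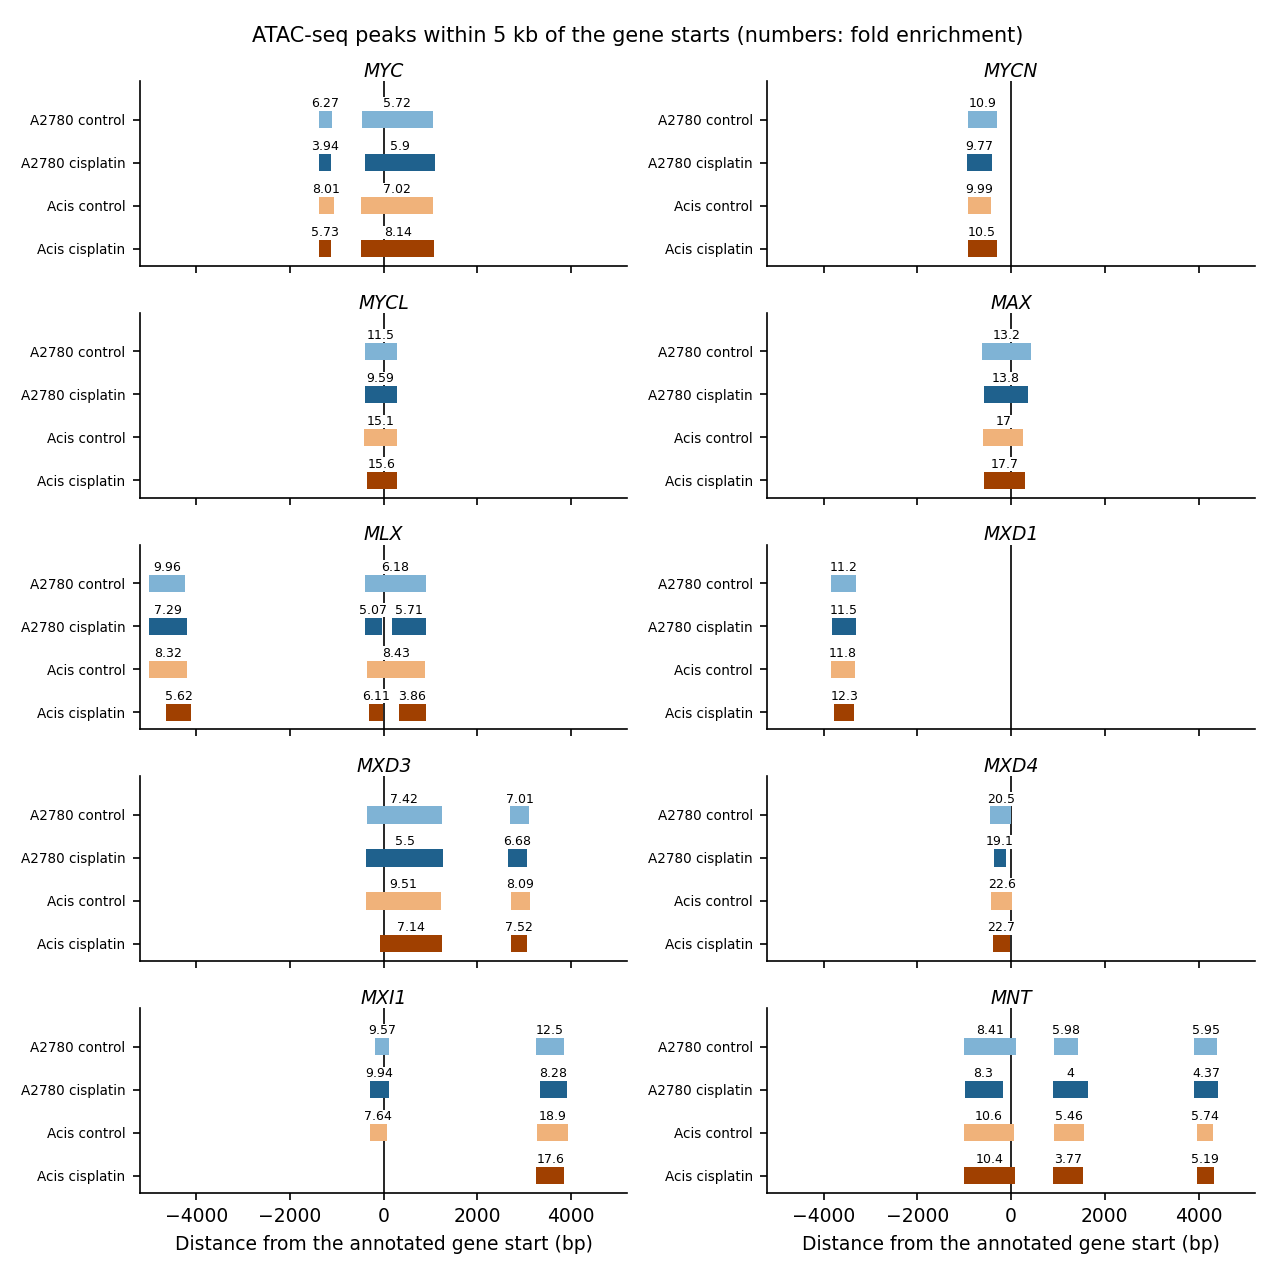
ATAC-seq peaks of the 4 lists within 5 kb of the annotated start of each of the 10 members, drawn by distance from the start in bp with transcription to the right, and labelled with the fold enrichment. MXD4 has the highest labels at the start, from 19.1 to 22.7, MXD1 has no peak within 1 kb of its annotated start, and MXI1 has none there in Acis cisplatin.

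Other genes around the network were taken from lists by role, and their counts are read beside the shares of all tested genes given above, which were 21.2% higher and 28.2% lower after cisplatin in A2780, 9.35% and 12.4% in Acis, and 28.2% and 30.6% between the untreated lines. The medians of all tested genes in these comparisons were -0.01, 0.01 and -0.01 on the log2 scale. The study reported that genes lowered by cisplatin were longer. The list genes were not compared with genes of similar length, and the part of length in their changes was not tested. Like the members, the lists were chosen with earlier results of these data known. Among 3 further network genes, MGA, a large MAX partner with repressive function, and MLXIP, a partner of MLX, were lower after cisplatin in both lines, and the list had medians of -0.36 in A2780 and -0.19 in Acis. MGA had 1480.3 to 1613 normalized counts in A2780 control, 900 to 935 in A2780 cisplatin, 1479.6 to 1580 in Acis control and 1024 to 1077 in Acis cisplatin libraries. It fell by 0.77 on the log2 scale in A2780 (adjusted p-value 9.4e-15) and by 0.54 in Acis (adjusted p-value 6.5e-11), and MLXIP fell by 0.36 and by 0.19 (adjusted p-values 9.58e-07 and 0.00312). MLXIPL, the carbohydrate response factor also called ChREBP, did not pass the test after cisplatin and was 2.65-fold higher in Acis control than in A2780 control (1.41 ± 0.15, adjusted p-value 4.43e-09), as MLXIP was by 1.29-fold (0.36 ± 0.05, adjusted p-value 1.3e-07).

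Of 9 cofactors of MYC, 3 were higher and 3 lower after cisplatin in A2780, beside 21.2% and 28.2% of all tested genes, with a median of -0.003 against -0.01 over all tested genes, and 0 were higher and 3 lower in Acis, with -0.09 against 0.01. TRRAP and EP400 were lower in both lines. TRRAP, a scaffold of histone acetyltransferase complexes, fell by 0.40 and 0.38 on the log2 scale, and the chromatin remodeller EP400 by 0.51 and 0.38. KAT2A, an acetyltransferase, and RUVBL2, an ATPase of remodelling complexes, were higher after cisplatin in A2780, by 0.16 and 0.18, although KAT2A was not past the test in DESeq2 (adjusted p-value 0.0736) or without A2780 control replicate 1 (adjusted p-value 0.053). In Acis control, 4 of the 9 were higher than in A2780 control and 0 lower, among them KAT2A by 0.50 and RUVBL2 by 0.25. Of 5 corepressors of the MXD proteins and MNT, 0 were higher and 2 lower after cisplatin in each line, with medians of -0.11 in A2780 and -0.10 in Acis. NCOR1 fell by 0.29 and by 0.31, and SIN3A, the partner of the MXD repression domain, by 0.22 and 0.12, the latter with an adjusted p-value of 0.0303 that rose to between 0.0586 and 0.156 without Acis control replicate 2 or 3 or Acis cisplatin replicate 2 or 3. Between the untreated lines, 0 of the 5 were higher and 3 lower in Acis, beside 28.2% and 30.6% of all tested genes. NCOR1 was lower by 0.17 (adjusted p-value 2.15e-05), SIN3A by 0.14 (adjusted p-value 0.00273) and HDAC1, a histone deacetylase, by 0.26 (adjusted p-value 2.51e-06). HDAC2 had -0.02 in that comparison (adjusted p-value 0.754).

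Of 12 regulators of MYC protein stability, 3 were higher and 5 lower after cisplatin in A2780 and 1 was higher and 3 lower in Acis, with medians of -0.10 and -0.07, against -0.01 and 0.01 over all tested genes. The counts in A2780 stand beside 21.2% higher and 28.2% lower among all tested genes. The ubiquitin ligase HUWE1 fell by 0.39 and 0.37, and GSK3B, the kinase that marks MYC for degradation, by 0.40 and 0.35, in A2780 and Acis. USP28, a deubiquitinase of MYC, fell by 0.31 in A2780 (adjusted p-value 8.57e-05) and had -0.13 in Acis (adjusted p-value 0.103). PIM1, a kinase that phosphorylates MYC, had 484 to 497 normalized counts in A2780 control, 599 to 640.2 in A2780 cisplatin, 24.5 to 39.3 in Acis control and 36.5 to 55.0 in Acis cisplatin. Its log2 difference between the untreated lines was -4.02 ± 0.11 (adjusted p-value 2.92e-22), far beyond that of any member. It rose by 0.33 in A2780 (adjusted p-value 6.58e-06) and by 0.58 in Acis (adjusted p-value 0.0303), the latter not past the test in DESeq2 (0.0573) or without Acis control replicate 2 or 3 or Acis cisplatin replicate 2 or 3 (0.0596 to 0.185). PPP2R5A, a subunit of the phosphatase that acts on MYC, was 1.58-fold higher in Acis control (0.66 ± 0.05, adjusted p-value 4.89e-12). Between the untreated lines, 4 of the 12 regulators were higher and 3 lower in Acis, beside 28.2% and 30.6% of all tested genes.

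Of 30 genes known to be activated by MYC, 13 were higher and 7 lower after cisplatin in A2780, and 1 was higher and 5 lower in Acis, where 21.2% and 28.2% of all tested genes were called in A2780 and 9.35% and 12.4% in Acis. Their median was 0.01 in A2780 and -0.045 in Acis on the log2 scale, against -0.01 and 0.01 over all tested genes. Between the untreated lines, 16 were higher and 7 lower in Acis, against 28.2% and 30.6% of all tested genes, with a median of 0.13 against -0.01. Among them, the nucleolar protein gene NOP56 rose by 0.30 in A2780 (adjusted p-value 2.21e-07), had 0.05 in Acis (adjusted p-value 0.338) and was 1.38-fold higher in Acis control than in A2780 control. BOP1, a ribosome assembly factor, was 1.59-fold higher in Acis control (0.67 ± 0.04, adjusted p-value 8.49e-14). TFRC, the transferrin receptor, fell by 0.27 in A2780 and PPAT, an enzyme of purine synthesis, by 0.28, with values of 0.04 and 0.04 in Acis (adjusted p-values 0.545 and 0.68). NOP2, a ribosomal RNA methyltransferase with 22.4 to 58.1 normalized counts, rose 2.15-fold in A2780 (adjusted p-value 6.91e-06) and was the only gene of this list past the stricter rule there.

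Of 10 genes known to be repressed by MYC, 9 were tested, of which 8 were higher and 1 lower after cisplatin in A2780 and 5 were higher and 0 lower in Acis, with medians of 0.76 and 0.62 against -0.01 and 0.01 over all tested genes. Among all tested genes, 21.2% were higher and 28.2% lower in A2780, and 9.35% and 12.4% in Acis. Between the untreated lines, 3 of the 9 were higher and 4 lower in Acis, against 28.2% and 30.6%, with a median of -0.44. Several of these genes also belong to the p53 and stress responses. CDKN1A, the cell cycle inhibitor p21, had 524 to 537 normalized counts in A2780 control, 947 to 969 in A2780 cisplatin, 149 to 154 in Acis control and 253 to 298.5 in Acis cisplatin. It rose 1.80-fold in A2780 (adjusted p-value 1.27e-14) and 1.77-fold in Acis (adjusted p-value 9.56e-09), from a level that was lower in Acis by 1.80 ± 0.07 on the log2 scale, a difference of -1.80 (adjusted p-value 5.64e-19). GADD45A, a growth arrest gene, rose 1.80-fold in A2780 and 1.54-fold in Acis, and CEBPA, a differentiation factor, 1.70-fold and 1.34-fold. CEBPA was higher in Acis control than in A2780 control (0.41 ± 0.09, adjusted p-value 0.000316) and GADD45A was lower (-1.53 ± 0.11, adjusted p-value 1.64e-12). CDKN2B, the inhibitor p15, went from 3.73 to 7.47 up to 24.2 to 27.2 normalized counts in A2780 libraries (adjusted p-value 5.31e-07), and it had 3.18 to 7.97 and 7.87 to 10.6 in Acis without and with cisplatin (adjusted p-value 0.211). THBS1, thrombospondin, was the gene that fell in A2780, by 0.25 (adjusted p-value 1.83e-06), and it had 2.12 to 4.56 normalized counts in Acis control against 1296 to 1426 in A2780 control libraries.

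TXNIP and ARRDC4 are arrestin genes that MLX activates together with MLXIP or MLXIPL. TXNIP had 7.46, 13.5 and 17.1 normalized counts in A2780 control, 38.4, 42.6 and 35.3 in A2780 cisplatin, 34.0, 25.5 and 34.2 in Acis control and 39.3, 50.2 and 46.1 in Acis cisplatin. The A2780 control libraries were below all others. TXNIP rose 3.09-fold in A2780 (1.63 ± 0.23, adjusted p-value 1.63e-06) and was 2.49-fold higher in Acis control than in A2780 control (1.31 ± 0.25, adjusted p-value 5.77e-05). In Acis it rose by 0.53 (adjusted p-value 0.0373), a call that was lost in DESeq2 (0.263), without a filter on low counts (0.0503) and without Acis control replicate 2 or Acis cisplatin replicate 2 or 3 (0.078 to 0.207). ARRDC4, whose promoter window held an E-box and an AP-1 motif, had 0.932 to 3.93 normalized counts in all A2780 libraries and 13.8 to 27.6 in all Acis libraries. The 2 promoter windows of TXNIP held none of the motifs searched. Of 7 neighbouring and antisense transcripts, only the long noncoding RNA PVT1, which lies downstream of MYC, was tested. PVT1 had 386 to 448.5 normalized counts in A2780 control, 246 to 291 in A2780 cisplatin, 647 to 726 in Acis control and 342 to 367 in Acis cisplatin. It fell by 0.63 on the log2 scale in A2780 (adjusted p-value 3.08e-08) and by 0.92 in Acis (adjusted p-value 1.51e-11), and it was 1.59-fold higher in Acis control than in A2780 control (0.67 ± 0.06, adjusted p-value 1.18e-10).

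The genes whose pattern over the 12 libraries was most like that of MYC were found by the Pearson correlation of log2(normalized count + 1) among 9327 genes with a mean of at least 100 normalized counts. They were TLE1, a corepressor, LAMC3, a laminin chain, CPT1A, the carnitine palmitoyltransferase, BMP7, a growth factor, and CHD5, a chromatin remodeller, with r from 0.996 to 0.997. The points fall into the 2 lines, so that r describes the line difference that these genes share with MYC. The mean of CPT1A was 180 and 165 normalized counts in A2780 without and with cisplatin and 779 and 672 in Acis, a larger difference between the lines than that of MYC.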

How the data were processed

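RNA-seq was performed on 12 libraries of A2780 and Acis cells, and ATAC-seq peak lists were given for 4 conditions, while the XR-seq samples were not analysed here. The authors made the raw counts by STAR (version 2.7.3) alignment of stranded, single-end reads to hg38, removal of PCR duplicates with Picard and counting on genes with HTSeq 0.11.1 with reverse strandedness, so that antisense transcripts are counted apart, and deposited these counts without normalization. Removing duplicates by position lowers the counts of short, highly expressed genes. The fold enrichment, the -log10 p-value and q-value and the integer score of each peak were deposited as the authors computed them with MACS2, after Bowtie2 alignment, keeping peaks shared among 3 replicates for each control list and 2 for each cisplatin list. No depth per peak list was given in the sources used here.

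Counts were analysed with edgeR 4.0.16 in R 4.3.3: TMM factors of 0.965 to 1.05, the default filter on low counts, a single model with 4 group means for the 12 libraries (8 residual degrees of freedom), the quasi-likelihood test and Benjamini-Hochberg adjustment over 15760 genes. DESeq2 1.42.0, which the authors used, was an alternative, beside other scalings, no filter, a replicate block, leaving out each library and merging the closest libraries. The script was tested on simulated data. Levels per kb divide normalized counts by the union of annotated exons in GENCODE 44, which holds 23513 of the identifiers. Peaks were compared by overlap with starts in Python 3.11.15, with 1-based positions, and plots were made with matplotlib 3.10.9. Intervals of fold changes are at the 95% level. The 10 members and the gene lists were chosen with earlier results of these data known. All members are named, and from each list of over 4 tested genes the 4 with the smallest adjusted p-values in A2780 after cisplatin and the 2 with the smallest between the untreated lines, with smaller lists in full, counts and ranges of the marker lists, and the 5 genes most like MYC. A gene that this rule names among the cofactors is not reported here.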

Additional observations from a re-analysis of the deposited data

Results flagged for a closer look

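For 10 genes among the 9 tested members and 30 genes of the lists, the effect of cisplatin differed between the lines in the test of the interaction, given as the log2 effect in Acis minus that in A2780. Among all tested genes, 13.4% had a more positive and 5.48% a more negative effect in Acis, and most of the list genes were picked by a small adjusted p-value after cisplatin in A2780, which is 1 of the effects compared. Among the members this was MNT, at -0.35. In the lists it was MGA at 0.23 (adjusted p-value 0.00321), RUVBL2 at -0.26 (0.0033), NOP56 at -0.25 (0.0012), TFRC at 0.31 (0.000187), PPAT at 0.32 (0.000889), BOP1 at -0.19 (0.0221), CEBPA at -0.34 (0.0388), TXNIP at -1.1 (0.0124) and PVT1 at -0.3 (0.0279). In DESeq2, MNT, BOP1, CEBPA, TXNIP and PVT1 did not pass the test, with adjusted p-values of 0.0639, 0.0844, 0.111, 0.0719 and 0.0693. Leaving out 1 library also ended the call for these 5 genes: for TXNIP without A2780 control replicate 1 (-0.81, adjusted p-value 0.0914), and for the other 4 in 5 or more of the 12 cases. Without a filter on low counts, BOP1 (0.0554) and CEBPA (0.0575) were not past the test. The effects of TFRC, PPAT, NOP56 and RUVBL2 in A2780 were -0.27, -0.28, 0.30 and 0.18, and in Acis 0.04, 0.04, 0.05 and -0.09.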

How the results depend on the processing

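Of 810 values of a member under an alternative, 792 kept their side of the threshold, 16 were no longer past the test, 2 passed it newly, and none changed direction while past the test. Of the values not past the test, 31 changed sign. With the stricter rule of the study, 0 members were called after cisplatin in either line, 1 between the untreated lines and 0 between the treated lines. The call between the untreated lines was that of MYCL, whose log2 value was 0.92 to 1.09 under the alternatives, on both sides of the limit of 1. Leaving out 1 library at a time gave 5 members in A2780, 3 in Acis, 6 to 7 between the untreated lines, 8 to 9 between the treated lines and 0 to 1 for the interaction, and DESeq2 gave 4, 3, 6, 6 and 0 in the same order. With a replicate block, the counts were 5, 3, 7, 9 and 1, and no call of a member changed. The replicate numbers did not pair the libraries, since deviations from the group means correlated at -0.059 to 0.0947 over 18 same-numbered pairs. With the length of the longest transcript, the share of MYC was 95.61% in A2780 control, 93.48% in Acis control and 90.24% in Acis cisplatin, and without 1 library it was 94.6% to 95.2%, 90.5% to 91.6%, 92.3% to 92.7% and 88.6% to 89.2% in the 4 groups. Within 5 kb of the start, 10 members had a peak in each list. With the start of the MANE Select transcript, an alternative chosen after seeing the data, the number was 10 and 10 in A2780 without and with cisplatin and 10 and 9 in Acis, and with the start itself it was 7, 5, 8 and 5. The cause of these changes was not tested. Depth limits MYCL and MXD3, with 28 to 116 and 48 to 97 counts per library, most.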
